A study of Mus musculus with 6 samples.

Results

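The 10 genes of the hypoxia-inducible factor (HIF) system described here in fetal mouse hearts were the factor subunits Hif1a and Epas1, and 8 genes known as HIF targets, Vegfa, Egln1, Egln3, Adm, Ndrg1, Ankrd37, Ddit4 and Kdm3a. They were taken by name, and all 10 were found among the 35458 genes that the deposited transcripts gave. All 10 also passed the filter on low counts, so none dropped out before the test. The nano-TiO2 group was hearts of wild-type (WT) FVB/NJ fetuses whose dams inhaled an aerosol of titanium dioxide nanoparticles at a target of 12 mg/m3. Each exposure lasted 360 minutes, and 6 of them were spread over 8 days from gestational day 5. The sham group was WT FVB/NJ fetal hearts from dams that breathed filtered room air. Both groups were collected at gestational day 15, and the 14 dams of the study were 10 weeks old. Each group had 3 libraries, each from pooled hearts of both sexes. The study immunoprecipitated RNA that carries m6A, a methyl mark, and these are its inputs, in which fragmented RNA was sequenced without antibody and abundance was measured. No source used here says which litters entered a pool, and the p-values therefore speak to the spread between pools alone, which may be technical.

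HIF is a transcription factor made of an oxygen-sensitive alpha subunit and a stable beta subunit. With oxygen present, prolyl hydroxylases mark the alpha subunit, the von Hippel-Lindau protein binds it, and the proteasome destroys it. When oxygen is short the subunit persists, enters the nucleus and switches on genes for blood vessel growth, glycolysis and feedback on HIF itself. Regulation of the alpha subunit therefore acts mainly on its protein, whereas the RNA of targets such as Ankrd37 and Egln3 is a usual readout of HIF activity. The early heart develops at low oxygen, and loss of Hif1a is lethal to the mouse embryo.

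The libraries held 12881945 to 21553478 estimated reads with nano-TiO2 and 17152365 to 22720009 with sham. The heart label held: 8 of 8 cardiomyocyte markers were measured. Their summed level was 27275 to 35488 CPM (reads relative to library size, after TMM scaling) in nano-TiO2 libraries and 36917 to 42848 CPM in sham libraries. At an adjusted p under 0.05, 1 of these 8 was called higher and 2 lower, beside 15.5% and 12.8% of all genes. Erythroid markers (11 of 11 measured) summed to 45580 to 93373 CPM with nano-TiO2 and 121057 to 300145 CPM with sham. Of these 11, 6 were called lower at an adjusted p under 0.05, beside 12.8% of all genes. Endothelial markers (8 of 8, 1 called higher and 1 lower) summed to 466 to 499 CPM with nano-TiO2 and 548 to 570 CPM with sham. Macrophage markers (7 of 7, 1 called higher) summed to 78.7 to 96.8 CPM with nano-TiO2 and 89.1 to 118 CPM with sham. Fibroblast and epicardial markers (6 of 6, 0 called) summed to 2388 to 2432 CPM with nano-TiO2 and 2187 to 2637 CPM with sham. Single libraries stood apart in genes of other organs: 5 lung markers summed to 1473 CPM in nano-TiO2 library 3 and 6 hepatocyte markers to 870 CPM in sham library 2. Lung sums in the other libraries were 0.304 and 283 CPM with nano-TiO2 and 13.0 to 143 CPM with sham, and hepatocyte sums were 2.85 to 28.0 CPM with nano-TiO2 and 20.7 and 66.4 CPM in sham libraries 1 and 3. The lung markers Sftpa1, Nkx2-1, Cldn18 and Scgb1a1 were at 0 in nano-TiO2 library 1. The part of these differences in the results below was not tested, beyond the values given without those libraries.

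The core of the HIF binding site reads ACGTG or GCGTG. It was searched on both strands of each gene's proximal promoter, the window of 300 bases from 250 before to 50 after the start, in RefSeq sequence of the GRCm38.p6 build. The table held 8 of the 10 genes, not Epas1 or Ndrg1. At least 1 core was found in 7 of these 8 and none in Vegfa, while 43.8% of all 32851 promoters had one. A palindromic CACGTG was counted once on each strand. Promoters are printed for the 2 genes called higher, Hif1a and Kdm3a, and for Ankrd37 and Ddit4, the 2 with the smallest fold changes under TMM scaling. Capitals mark the cores, written 5′ to 3′ on the gene's strand, so that a core on the other strand appears as CACGT or CACGC. The windows are chr12:73907617-73907916 on the plus strand, chr6:71632868-71633167 on the minus strand, chr8:45999801-46000100 on the minus strand and chr10:59951721-59952020 on the minus strand.
Hif1a: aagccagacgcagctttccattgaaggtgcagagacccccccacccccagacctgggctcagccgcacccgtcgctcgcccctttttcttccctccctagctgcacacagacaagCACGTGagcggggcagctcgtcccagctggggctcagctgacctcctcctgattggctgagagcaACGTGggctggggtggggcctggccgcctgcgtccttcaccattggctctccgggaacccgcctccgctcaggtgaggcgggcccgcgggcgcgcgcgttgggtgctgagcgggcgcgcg
Kdm3a: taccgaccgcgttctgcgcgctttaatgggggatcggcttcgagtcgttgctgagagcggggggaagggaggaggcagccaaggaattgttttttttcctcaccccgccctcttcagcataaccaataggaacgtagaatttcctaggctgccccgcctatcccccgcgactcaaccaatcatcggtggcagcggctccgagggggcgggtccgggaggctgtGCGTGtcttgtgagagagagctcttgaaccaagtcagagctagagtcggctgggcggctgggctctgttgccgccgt
Ankrd37: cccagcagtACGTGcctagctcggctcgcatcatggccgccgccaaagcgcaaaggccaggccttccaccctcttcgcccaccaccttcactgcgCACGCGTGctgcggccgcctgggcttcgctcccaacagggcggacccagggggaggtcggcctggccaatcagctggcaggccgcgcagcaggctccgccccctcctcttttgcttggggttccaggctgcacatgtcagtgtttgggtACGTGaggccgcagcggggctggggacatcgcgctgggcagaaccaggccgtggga
Ddit4: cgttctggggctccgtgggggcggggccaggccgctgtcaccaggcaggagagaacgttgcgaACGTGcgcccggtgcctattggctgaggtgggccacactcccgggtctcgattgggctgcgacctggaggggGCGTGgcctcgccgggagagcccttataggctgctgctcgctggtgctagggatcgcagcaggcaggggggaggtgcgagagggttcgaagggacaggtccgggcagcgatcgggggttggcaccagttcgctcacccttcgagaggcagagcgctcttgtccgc
The Ankrd37 window held 4 cores, of which 2 overlap on opposite strands in the palindrome CACGCGTG. Hif1a held 3, of which 2 are the strands of 1 palindrome, Ddit4 2 and Kdm3a 1. The printed genes were picked by call or fold change, so their counts cannot show whether cores go with fold change. Of the windows not printed, Egln1 and Adm held 2 cores each, Egln3 1 and Vegfa 0. A match is a description of the letters, not a measured binding site.

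Both factor genes lay higher with nano-TiO2. Hif1a, the alpha subunit present in most tissues, had 131, 115 and 89.2 CPM in nano-TiO2 libraries 1, 2 and 3, against 71.2, 53.2 and 78.1 CPM in sham libraries 1, 2 and 3. The groups did not overlap, with sham library 2 lowest and nano-TiO2 library 1 highest. The log2 fold change was 0.72 ± 0.19 (SE, 3 libraries a group), or 1.65-fold, and passed the test (adjusted p = 0.0258, edgeR's quasi-likelihood test with Benjamini-Hochberg adjustment). The call was lost without nano-TiO2 library 1 (adjusted p = 0.0933, edgeR) and without sham library 2 (adjusted p = 0.0722, edgeR). In bulk tissue, fewer cells of a type and less RNA per cell cannot be told apart.

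Epas1, the alpha subunit known for its role in endothelium, had 40.1, 33.9 and 34.6 CPM in the nano-TiO2 libraries, against 28.0, 21.5 and 29.0 CPM in the sham libraries. Again no sham library reached the lowest nano-TiO2 library. The difference of 0.47 ± 0.17 log2 units missed the threshold (adjusted p = 0.0665, edgeR). It passed with upper-quartile factors (adjusted p = 0.0435, edgeR), in DESeq2 (adjusted p = 0.0441) and on the reads of the series table (adjusted p = 0.0454, edgeR), so its call rested on the tool, the scaling and the counting. Endothelial markers as a sum ran the other way, as given above, but single markers were mixed. Erg was called higher (log2 fold change 0.90), Esam lower (-0.45), and the others were not called.

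Kdm3a, a histone demethylase that removes methyl groups from lysine on histone H3, had the largest fold change of the 10. Its level was 31.9, 30.1 and 24.8 CPM with nano-TiO2, against 15.2, 8.90 and 17.9 CPM with sham. The groups were clear of each other, and sham library 2 was again the lowest. The log2 fold change was 1.04 ± 0.25, or 2.05-fold, and passed the test (adjusted p = 0.0206, edgeR). Leaving out nano-TiO2 library 1 ended the call (adjusted p = 0.0689, edgeR).

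The secreted products did not pass the test. Vegfa encodes the growth factor that drives vessel sprouting. It had 5.47, 4.37 and 7.90 CPM with nano-TiO2, against 2.98, 5.46 and 3.26 CPM with sham, a log2 difference of 0.62 ± 0.33 (adjusted p = 0.191, edgeR). Sham library 2 was the highest sham library for this gene and overlapped the nano-TiO2 group. Adm encodes adrenomedullin, a peptide that widens vessels and is needed for vascular development in the embryo. It had 8.69, 4.94 and 6.74 CPM with nano-TiO2, against 5.25, 3.97 and 5.24 CPM with sham, and a log2 difference of 0.49 ± 0.27 (adjusted p = 0.197, edgeR). Only nano-TiO2 library 2 reached into the sham range. Both genes were shallow, with 69.5 to 191 estimated reads for Vegfa and 79.0 to 163 for Adm with nano-TiO2, and 63.0 to 73.0 and 53.0 to 111 with sham.

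The prolyl hydroxylases that hand HIF to degradation are themselves HIF targets. Egln1, the main such enzyme in most cells, had 49.3, 38.9 and 65.5 CPM with nano-TiO2, against 33.5, 49.5 and 35.8 CPM with sham. The ranges overlapped, with sham library 2 high and nano-TiO2 library 2 low, and the log2 difference was 0.37 ± 0.23 (adjusted p = 0.242, edgeR). Egln3, the hydroxylase most strongly induced by low oxygen in many cell types, had 26.8, 14.6 and 24.1 CPM with nano-TiO2, against 16.9, 13.0 and 30.0 CPM with sham. Its highest value was in a sham library, and the log2 difference was 0.13 ± 0.33 (adjusted p = 0.801, edgeR).

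Ndrg1, Ankrd37 and Ddit4 had fold changes at or slightly below 0 under TMM scaling. Ndrg1, a stress-induced gene linked to differentiation and myelin upkeep, had 40.0, 22.9 and 39.4 CPM with nano-TiO2, against 27.3, 41.6 and 50.0 CPM with sham (log2 difference -0.21 ± 0.28, adjusted p = 0.594, edgeR). Ankrd37, an ankyrin-repeat gene used as a marker of HIF activity, had 8.44, 8.19 and 12.1 CPM with nano-TiO2, against 8.88, 6.96 and 13.3 CPM with sham (log2 difference -0.02 ± 0.28, adjusted p = 0.962, edgeR). Ddit4, an inhibitor of mTOR signalling also induced by glucocorticoids and DNA damage, had 36.7, 47.6 and 45.2 CPM with nano-TiO2, against 43.7, 37.3 and 50.1 CPM with sham (log2 difference -0.02 ± 0.16, adjusted p = 0.943, edgeR). In each of these 3 genes the highest library was a sham library and the groups overlapped. Ankrd37 shares 22.7% of its exon bases with Lrp2bp, which had a mean of 15.2 estimated reads, and 3.70% with Ufsp2, which had a mean of 429. Both lie on the other strand, and whether counting used strand is not given. A miss of the threshold does not show that these genes did not differ: their standard errors of 0.16 to 0.28 leave room for changes of that order.

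**Figure D1:**
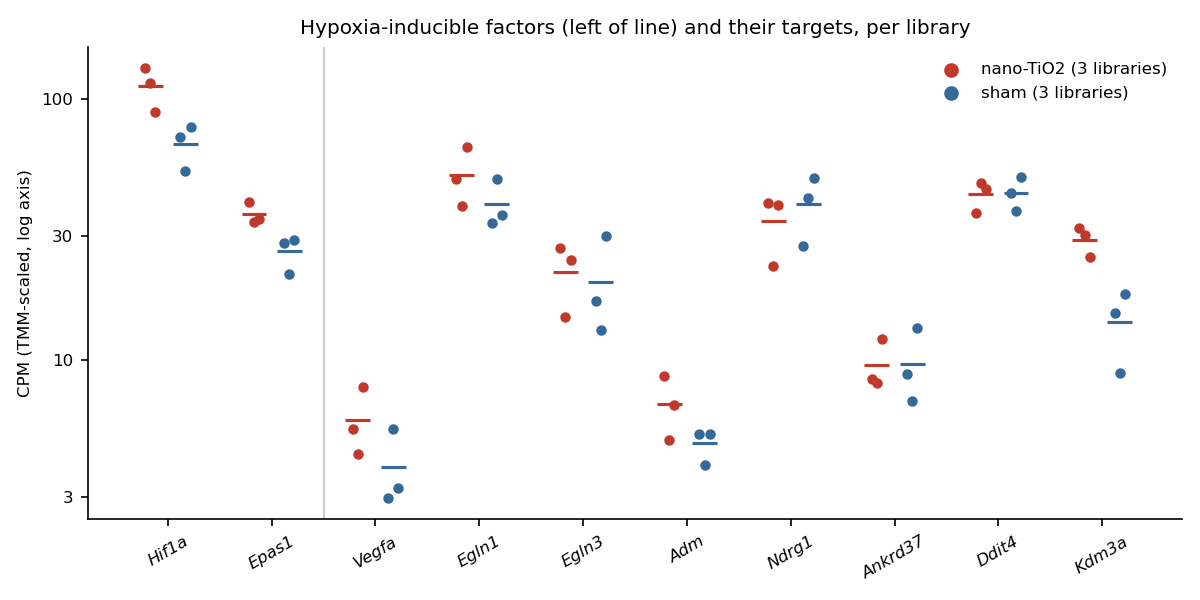
Level of each gene in each of the 6 libraries in CPM on a log axis, nano-TiO2 left of sham, with points for libraries and bars for group means; the vertical line divides the factors from the other genes. For Hif1a, Epas1 and Kdm3a the groups are clear of each other, and for the other 7 genes they overlap.

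Of the 10 genes, 2 were called higher and 0 lower by edgeR. An unadjusted p under 0.05 was found in 3, Hif1a, Epas1 and Kdm3a, beside 5855 of all 13930 genes. Over all 13930 genes tested, 15.5% were called higher and 12.8% lower (28.2% in all), so 2 calls in 10 is near the background. On the series table's reads 3 of the 10 were called, all higher, against 15.4% of genes called higher and 11.2% lower (26.6% in all). Groups did not overlap in 3 of the 10, all higher, against 45.7% of all genes (23.3% not overlapping and higher). Fold changes were above 0 in 7 of 10, with a median log2 fold change of 0.42 over the 10, 0.60 over the 2 factors, 0.25 over the other 8 and -0.01 over all genes tested. Leaving out sham library 2 and nano-TiO2 library 3, those richest in liver and lung transcripts, left 0 of the 10 called by edgeR, with 2 at an unadjusted p under 0.05. None of 14021 genes was called by edgeR in that comparison of 2 against 2 libraries, with 3350 at an unadjusted p under 0.05. Hif1a and Kdm3a then had log2 fold changes of 0.76 and 0.94 (adjusted p = 0.130 for each, edgeR), close to those with all libraries. Without haemoglobin, mitochondrial and rRNA genes the count stayed at 2.

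Fold changes in these libraries followed transcript length and GC content across all genes, and the members differ in both. In the quintile of genes with the longest transcripts, to which Hif1a, Epas1 and Kdm3a belong, the median log2 fold change was 0.68, while Adm and Ankrd37 belong to the shortest quintile, with a median of -0.45. By GC content, the lowest quintile, that of Hif1a, had a median of 0.49 and the highest, that of Ddit4, one of -0.43. Hif1a has a read-weighted transcript length of 4521 bases and 41.0% GC, and Kdm3a 4589 bases and 45.4% GC. Of the 824 genes in the same length and GC quintiles as Hif1a, 55.0% were called higher, with a median log2 fold change of 0.91, above Hif1a's own 0.72. For Kdm3a, 69.6% of 703 such genes were called higher, with a median of 0.98 beside its 1.04. Both genes thus lay near the median of genes of like length and composition.

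The short and GC-rich targets lay on the other side of the same trend. Ddit4, at 1755 bases and 57.9% GC, had a log2 fold change of -0.02 where the 713 genes of its quintiles had a median of -0.46. Ankrd37 and Adm, at -0.02 and 0.49, share quintiles with 573 genes whose median was -0.36. Egln1, at 0.37, stood against a median of -0.20 over 491 genes. Vegfa at 0.62, Egln3 at 0.13 and Ndrg1 at -0.21 share quintiles with 540 genes of median 0.09, and Epas1 at 0.47 with 416 genes of median 0.04.

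Once the dependence on length and GC had been taken out of each library, 0 of the 10 genes were called by edgeR, against 0.416% of all genes called higher and 1.25% lower, and 9 of 10 were above 0. An unadjusted p under 0.05 was then found in 2 of the 10, beside 2835 of all 13930 genes. These 2 were Adm, at 0.63 ± 0.26 (adjusted p = 0.203, edgeR), and Ddit4, at 0.45 ± 0.17 (adjusted p = 0.162, edgeR). Hif1a came to 0.12 ± 0.17 (adjusted p = 0.737, edgeR), Epas1 to 0.14 ± 0.18 (adjusted p = 0.697, edgeR) and Kdm3a to 0.34 ± 0.21 (adjusted p = 0.397, edgeR). Egln1 had 0.52 ± 0.25, Vegfa 0.54 ± 0.32, Ankrd37 0.29 ± 0.24, Egln3 0.08 ± 0.39 and Ndrg1 -0.21 ± 0.33, none of which passed. The median over the 10 genes was 0.31, with 0.13 for the factors, 0.39 for the other 8 and -0.02 for all genes.

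**Figure D2:**
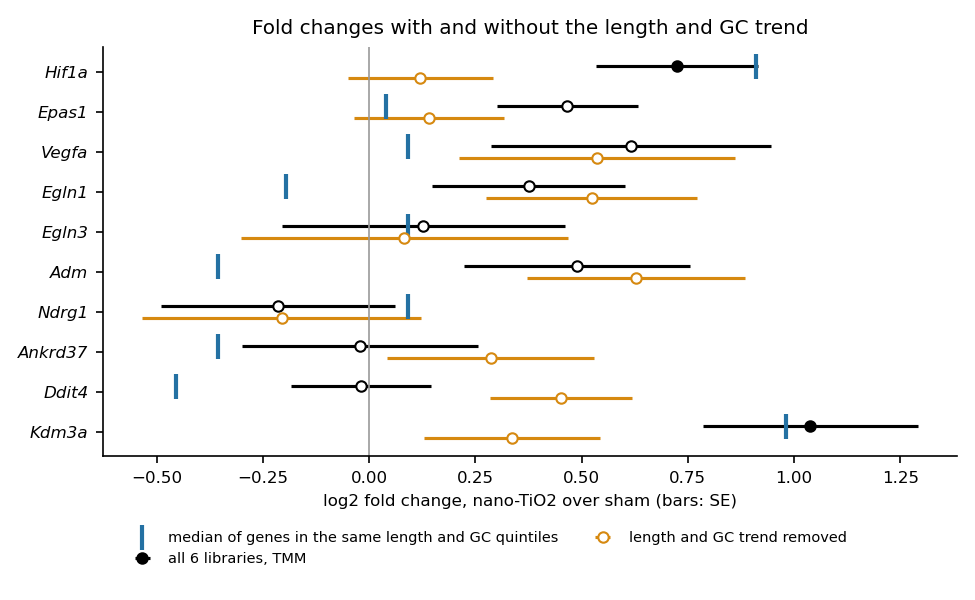
log2 fold change of nano-TiO2 over sham for each gene with its standard error, from all 6 libraries (black, filled where called) and after removing the trend over length and GC (orange), and the median of all genes in the same length and GC quintiles (blue tick). Hif1a and Kdm3a lie at 0.72 and 1.04 near ticks at 0.91 and 0.98, and the orange points of all genes but Ndrg1 are above 0.

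The factors were set against their targets within each library. The mean log2 CPM of Hif1a and Epas1 exceeded that of the other 8 genes by 1.85, 2.00 and 1.37 in nano-TiO2 libraries 1, 2 and 3, against 1.67, 1.28 and 1.39 in sham libraries 1, 2 and 3. Nano-TiO2 libraries 1 and 2 were above all sham libraries, and library 3 lay among them. The mean difference between groups was 0.29 log2 units, with a spread within groups of 0.27 (SD), and turned to -0.20 with the length and GC trend removed (SD 0.30). The sign of the difference was therefore not kept.

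Levels between genes were compared per length, in TPM (estimated reads per effective length, relative to the library's total). With nano-TiO2 the order ran Ddit4 at 37.8 ± 9.22, Hif1a at 34.1 ± 8.02, Egln1 at 21.0 ± 3.87, Ankrd37 at 15.9 ± 3.74, Ndrg1 at 15.0 ± 2.69, Egln3 at 10.8 ± 2.08, Kdm3a at 9.11 ± 2.05, Epas1 at 8.42 ± 0.786, Adm at 6.70 ± 1.24 and Vegfa at 2.87 ± 0.684 TPM (SD, n = 3). With sham it ran Ddit4 at 24.0 ± 5.93, Hif1a at 14.2 ± 4.46, Ndrg1 at 11.1 ± 3.25, Egln1 at 10.3 ± 0.601, Ankrd37 at 9.91 ± 4.02, Egln3 at 6.51 ± 3.26, Epas1 at 3.93 ± 1.10, Adm at 3.15 ± 0.893, Kdm3a at 2.90 ± 1.39 and Vegfa at 1.55 ± 0.553 TPM (SD, n = 3). Ranges of neighbours in either order overlapped, except for Adm above Vegfa with nano-TiO2. Ddit4 and Hif1a thus led and Vegfa closed both orders, and Kdm3a stood at place 7 with nano-TiO2 and at place 9 with sham.

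On the TPM scale the mean of each of the 10 genes was higher with nano-TiO2, and the groups were apart in 7, against 47.0% of all genes tested (46.7% apart and higher). The median log2 difference over all genes with a mean of at least 1 TPM was 0.47 on the log2(TPM + 1) scale, and 0.41 when counts were scaled by library totals alone. Relative to that shift, Hif1a at 1.23, Kdm3a at 1.43 and Epas1 at 0.96 were above the median gene, and Ndrg1 at 0.42 was slightly below it. The direction of Ndrg1, Ankrd37 and Ddit4 therefore depends on the scaling.

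No single isoform of the 10 genes passed the test. Of 55 transcripts of the 10 genes, 39 had reads, 18 could be tested and 0 were called by edgeR (3 at an unadjusted p under 0.05), against 0.921% of 30409 transcripts called higher and 1.10% lower. The longest Hif1a transcript, of 4724 bases, held 93.2, 84.9 and 82.0% of Hif1a's reads with nano-TiO2 and 83.7, 88.3 and 83.1% with sham. Epas1, Egln1, Egln3, Adm and Ddit4 had reads in 1 transcript each, and an Ndrg1 transcript of 2889 bases held 96.0 to 98.0% of that gene's reads with nano-TiO2 and 99.1 to 99.4% with sham. The division was unstable elsewhere. A Kdm3a transcript of 4816 bases took 49.6, 71.7 and 94.8% of Kdm3a's reads with nano-TiO2 and 79.5, 0 and 82.4% with sham, while one of 4753 bases took 96.9% in sham library 2. A Vegfa transcript of 3451 bases took 80.6, 64.3 and 53.8% with nano-TiO2 and 0, 47.6 and 95.0% with sham. Such splits are Salmon's estimates from reads that the isoforms share, and the gene totals do not depend on them.

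The series table gave reads in bins of about 25 bases, which show where along each gene the reads lay. Each gene's exon model was cut at its middle into a 5′ part and a 3′ part. In Hif1a both parts were higher with nano-TiO2, by log2 ratios of 0.70 in the 5′ part and 0.82 in the 3′ part. Kdm3a likewise had 1.20 and 1.01. In Epas1 the ratio was 0.16 in the 5′ part and 0.63 in the 3′ part, in Vegfa 0.13 and 1.07, in Egln1 0.17 and 0.59, and in Adm 0.20 and 0.71. The share of reads in the 3′ part was 64.4 to 65.7% with nano-TiO2 and 54.4 to 61.7% with sham in Egln1, where the groups did not overlap. It came to 70.7 to 83.1% with nano-TiO2 and 64.1 to 75.0% with sham in Epas1, 45.5 to 67.4% and 36.5 to 45.9% in Vegfa, and 60.5 to 66.0% and 47.9 to 61.7% in Adm, all 3 with overlapping groups. How often such shares part between groups over all genes was not computed, so the gap in Egln1 has no background beside it. The log2 ratios of Egln3 were 0.19 in both parts, of Ndrg1 -0.22 and -0.15, of Ankrd37 0.05 and -0.05, and of Ddit4 -0.01 and 0.08.

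Of 1665 bins of the 10 genes, 128 were deep enough to test, in Hif1a (54), Ddit4 (43), Egln1 (26) and Ndrg1 (5). Limma called 1 higher and 0 lower, with 22 at an unadjusted p under 0.05, against 1.14% of 245114 bins called higher and 4.48% lower. The called bin lay 5038 bases from the 5′ end of Hif1a's exon model of 5896 bases. Its values on the authors' scaling were 20.6, 23.0 and 31.4 with nano-TiO2, against 10.2, 7.76 and 11.8 with sham, so the groups did not overlap. The difference was 1.25 ± 0.34 on the log2(value + 1) scale (adjusted p = 0.0383, limma), and the call ended without any 1 of 5 libraries. In Hif1a 50 of 54 tested bins were above 0, in Egln1 21 of 26, and in Ddit4 24 of 43. Bins of a gene come from the same libraries and are not independent, and the share of all bins above 0 was not computed.

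**Figure D3:**
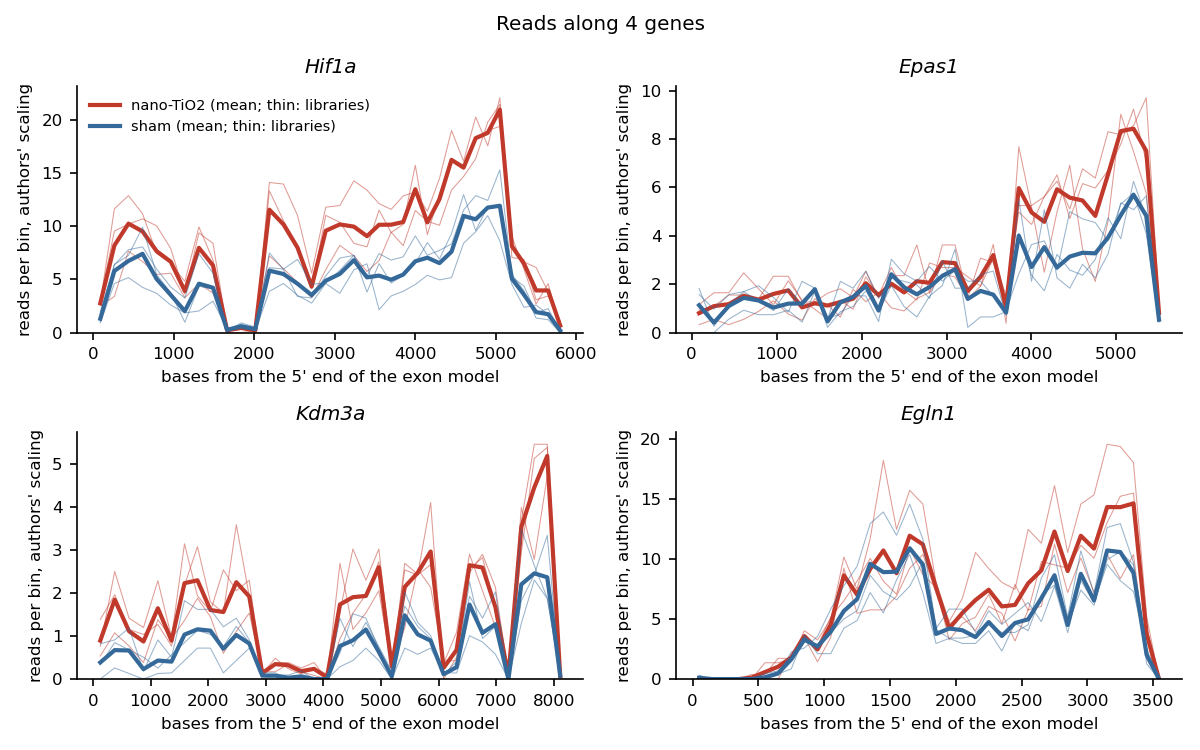
Mean reads per bin on the authors' scaling along the exon models of Hif1a, Epas1, Kdm3a and Egln1, against bases from the 5′ end; thick lines are group means and thin lines single libraries, with nano-TiO2 in red and sham in blue. In Hif1a and Kdm3a the red mean is above the blue along most of the gene, and in Epas1 the lines part in the 3′ part, where the log2 ratio is 0.63 against 0.16 in the 5′ part.

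Genes with profiles most like those of the factors were sought among 10384 genes by the root-mean-square difference of centred log2 CPM over the 6 libraries. Nearest to Hif1a were Nipa2 at 0.062, Frs2 at 0.064 and Zfp407 at 0.075 log2 units. Nearest to Epas1 were Inafm2 at 0.032, Xrn2 at 0.045 and Tent2 at 0.050. Hif1a and Epas1 differed from each other by 0.18. Kdm3a was 0.23 and Adm 0.28 from Hif1a, whereas Ddit4, Egln3, Ankrd37, Egln1, Vegfa and Ndrg1 were 0.45, 0.48, 0.51, 0.52, 0.57 and 0.65 away. From Epas1, Adm was 0.17 away, Ddit4 0.32, Ankrd37 0.36, Kdm3a 0.36, Egln3 0.37, Egln1 0.39, Vegfa 0.48 and Ndrg1 0.51.

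Calls across the wider HIF pathway were near the background. Of 73 tested pathway genes (74 listed, with Epo at 0 in every library), 14 were called higher and 10 lower by edgeR, or 12 and 10 of 63 without the members, beside 15.5% and 12.8% of all genes. The median log2 fold change was 0.16. Once length and GC were accounted for, 0 were called by edgeR, with a median of -0.01. An unadjusted p under 0.05 was then found in 18, beside 2835 of all 13930 genes. Without sham library 2 and nano-TiO2 library 3, 0 were called by edgeR. There 22 had an unadjusted p under 0.05, beside 3350 of all 14021 genes. Calls higher numbered 7 without nano-TiO2 library 1 and 8 without sham library 2, beside 864 of all 14462 and 1028 of all 14518 genes. Calls lower numbered 2, 3, 2, 2 and 5 without nano-TiO2 library 1, nano-TiO2 library 3, sham library 1, sham library 2 and sham library 3. Over all genes these numbered 439 of 14462, 541 of 13995, 552 of 14097, 425 of 14518 and 1132 of 14144.

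Among the HIF subunits, 2 of 5 were called higher, Hif1a and Arnt, beside 15.5% of all genes, and the other 3 were not called. Arnt, the beta subunit that pairs with both factors, had 44.0, 37.1 and 37.4 CPM with nano-TiO2, against 26.2, 21.5 and 31.2 CPM with sham (log2 fold change 0.58 ± 0.17, adjusted p = 0.0384, edgeR), and 0.01 with the trend removed. Hif3a, an alpha subunit whose short forms restrain HIF, was at -0.14 ± 0.12 (adjusted p = 0.421, edgeR), and at -0.59 with the trend removed (adjusted p = 0.0646, edgeR). Arnt2, the beta subunit best known in neurons, was at -0.02 ± 0.41.

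In the oxygen-sensing machinery 2 of 13 genes were called higher and 3 lower, beside 15.5% and 12.8% of all genes. Crebbp and Ep300, the acetyltransferases that HIF recruits to activate its targets, were higher. Crebbp had 100.2, 102 and 99.9 CPM with nano-TiO2, against 54.5, 41.7 and 47.1 CPM with sham (log2 fold change 1.07 ± 0.13, adjusted p = 0.00630, edgeR), and Ep300 was higher by 0.99 ± 0.18 (adjusted p = 0.00979, edgeR). The genes called lower were Elob, a subunit of the von Hippel-Lindau ligase, at -0.82 ± 0.11 (adjusted p = 0.00630, edgeR), Rbx1, its ring-finger subunit, at -0.52 ± 0.10, and Egln2, another prolyl hydroxylase, at -0.58 ± 0.12. Vhl itself was at -0.03 ± 0.21, Cul2, the ligase scaffold, at 0.71 ± 0.27 and Hif1an, the asparagine hydroxylase, at -0.06 ± 0.17, none of them called. Eloc was at -0.38, Siah2 at 0.49 and Cited2, a competitor of HIF for its coactivators, at 0.41, also not called. Crebbp and Ep300 have transcripts of 10576 and 7725 bases, and Elob and Rbx1 of 532 and 966 bases. With the trend removed the log2 differences were 0.42 for Crebbp, 0.31 for Ep300, 0.13 for Elob, -0.47 for Rbx1 and -0.17 for Egln2, and none was called.

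Of 14 glucose targets 5 were called lower and 1 higher, beside 12.8% and 15.5% of all genes, with a median of -0.27. Aldoa, aldolase of glycolysis, was at -0.68 ± 0.11, Ldha, which makes lactate, at -0.57 ± 0.12, and Gys1, glycogen synthase of muscle, at -0.49 ± 0.12 (adjusted p = 0.00847, 0.0140 and 0.0186, edgeR). Pfkl, at -0.59, and Eno1, at -0.71, were the other calls lower, and Pdk1, the kinase that keeps pyruvate out of mitochondria, was the call higher at 0.88 ± 0.24 (adjusted p = 0.0305, edgeR); these 3 were picked after their values were seen. Aldoa, Ldha and Eno1 have near-identical copies in the mouse genome, so their reads may be divided among them. With library totals alone 0 pathway genes were called lower by edgeR, beside 50 of all 13930 genes. In either direction 38 of them had an unadjusted p under 0.05, beside 5508 of all 13930 genes. The 5 glucose genes then stayed below 0, at -0.26 for Aldoa, -0.15 for Ldha, -0.07 for Gys1, -0.16 for Pfkl and -0.28 for Eno1. Once length and GC were accounted for, the log2 differences were -0.14 for Aldoa, -0.37 for Ldha, -0.41 for Gys1, -0.45 for Pfkl, -0.27 for Eno1 and 0.19 for Pdk1, none was called, and the list's median was -0.21.

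Of the 12 vascular targets tested 2 were called higher, near the 15.5% of all genes, and the other 10 were not called. Their median was 0.33, and 0.07 once length and GC were accounted for. Tek, the angiopoietin receptor of endothelium, had 47.2, 37.5 and 31.7 CPM with nano-TiO2, against 19.7, 16.5 and 21.1 CPM with sham (log2 fold change 1.02 ± 0.19, adjusted p = 0.00988, edgeR). Flt1, a VEGF receptor, was at 0.73 ± 0.16 (adjusted p = 0.0151, edgeR). With the trend removed they were at 0.35 and 0.00, and neither was called. Of 6 matrix targets 2 were called higher and 1 lower, beside 15.5% and 12.8% of all genes. Lox, which crosslinks collagen, was higher at 1.26 ± 0.23, Plod2, a collagen lysyl hydroxylase, higher at 0.81 ± 0.18 and its relative Plod1 lower at -0.51 ± 0.13. With the trend removed Lox was at 0.56, Plod2 at 0.23 and Plod1 at -0.33, none called.

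Of 19 stress and metabolic targets 3 were called higher and 1 lower, beside 15.5% and 12.8% of all genes, with a median of 0.11. The higher ones were Vldlr, a lipoprotein receptor, at 1.30 ± 0.25, Ero1a, an oxidase of protein folding, at 1.01 ± 0.20, and Wsb1, a ubiquitin ligase subunit, at 0.84 ± 0.19. The lower one was Higd1a, a mitochondrial protein, at -0.44 ± 0.13, named after its value was seen. Of 4 chromatin targets 2 were called higher, Kdm3a and Kdm5b, beside 15.5% of all genes. Kdm5b, another histone demethylase, had a log2 fold change of 0.65 ± 0.14. With the trend removed Vldlr was at 0.52, Ero1a at 0.41, Wsb1 at 0.47, Higd1a at -0.49 and Kdm5b at -0.20, none called.

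**Figure D4:**
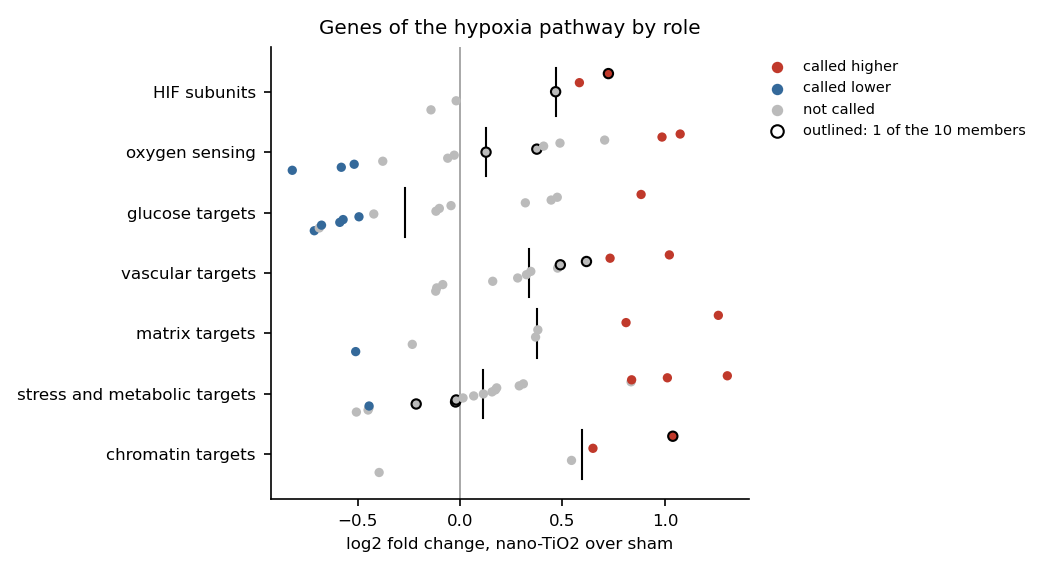
log2 fold change of nano-TiO2 over sham for the 73 tested genes of the HIF pathway by role, with black bars for list medians and outlined points for the 10 members. Calls higher and lower appear side by side in oxygen sensing, while glucose targets lie mostly left of 0 with a median of -0.27 and vascular targets mostly right of it with 0.33.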

How the data were processed

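RNA was measured in 6 input libraries of pooled fetal hearts, 3 per group, with groups and numbers taken from the titles. Per the labels' protocols, 3 µg of RNA was fragmented before a low-input library kit was used. The deposited estimated counts are Salmon's, given per transcript without scaling, per the file headers. The deposited TPM values are also Salmon's, per the file headers. The deposited table of the series holds a signal per bin of about 25 bases, which is reads divided by the authors by a factor per library: undoing that factor gave whole reads for 100% of values (tolerance 0.001). DESeq2 1.34.0, Salmon 1.5.2, HISAT2 2.2.1 and GRCm39 are named, with no role, in the submitters' processing notes. How the table was counted, and whether by strand, is not given in the sources used here. Its bins ran in genomic order on both strands, judged by exon lengths of 2293 plus-strand and 2280 minus-strand genes (94.9% and 91.8% matched better in that order), so genes on the minus strand were read from the other end.

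GENCODE M21 (GRCm38) gave symbols, lengths and GC content, and its gene coordinates are not printed; 115685 of 116747 transcripts matched by ID. Reads were summed per gene and rounded. The test was edgeR 4.0.16's quasi-likelihood test (robust) with TMM scaling, filterByExpr and group as the only term, on 13930 genes, and a call means an adjusted p (Benjamini-Hochberg) under 0.05; standard errors are the log2 fold change over the root of F. Bins with a mean of at least 10 were tested with limma 3.58.1 on log2(value + 1). Length and GC trends were removed with a smooth offset per library (mgcv 1.9.3). Other settings were RLE, upper-quartile and total scaling, DESeq2 1.42.0, limma-voom, other filters, limma on log2(TPM + 1) and log2(TPM + 0.1), the replicate number as a block, the series table's reads, and libraries left out. Reading the series table with the trend removed was added after seeing the data. The tests were tested on simulated data. The labels give no batch, and depth sets the counting error alone.

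The members and lists were chosen with earlier results of these data known. Genes named were the members, all HIF subunits and oxygen sensors, up to 3 called genes with the smallest p of each other list, the 3 genes nearest each factor with a mean of at least 5 CPM, and markers.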

Additional observations from a re-analysis of the deposited data

How the results depend on the processing

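Members called higher by edgeR numbered 2. They numbered 6 with library totals, 8 by limma on log2(TPM + 1) and on log2(TPM + 0.1), and 5 on log2(TPM + 1) without a filter. They numbered 0 with the length and GC trend removed, also with the replicate block or on the series table's reads, and 0 without sham 2 and nano-TiO2 3, with 2 members at an unadjusted p under 0.05 in each of these, and 0 to 2 with each library left out. Pathway genes called higher, 14, numbered 30, 40, 40 and 25 under the first 4 settings, 0 under the next 4, and 7 to 16 with each library left out. Pathway genes called lower, 10, numbered 0 under all 8 settings and 2 to 12 with each library left out. In these 8 settings 38, 42, 42, 40, 18, 11, 19 and 22 pathway genes had an unadjusted p under 0.05 in either direction. Over all genes the numbers were 5508, 5528, 5507, 6428, 2835, 2285, 4301 and 3350. Of all genes, 4270, 4532, 4489, 3230, 58, 10, 417 and 0 were called higher in these settings. Those called lower numbered 50, 16, 15, 21, 174, 38, 503 and 0. The genes tested were 13930, 11935, 11935, 22637, 13930, 13930, 18850 and 14021. With each library left out, 864 to 2190 of all genes were called higher and 425 to 2082 lower, with 13995 to 14518 tested. The shift of the median gene was 0.41 log2 units with library totals, and 0.47, 0.56 and 0.20 in the 3 TPM settings. The cause was not tested.

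Whether the replicate numbers pair the samples is not given in the labels. Correlations of deviations for numbers 1, 2 and 3 were -0.39, 0.02 and -0.08. Between libraries of unlike number they were -0.42 to 0.48. With the replicate block 1 member was called higher, 12 pathway genes higher and 6 lower, and 0 transcripts and 0 bins were called. Over all 13930 genes 1262 were then called higher and 795 lower. Hif1a had an adjusted p of 0.0524 (edgeR) with the block. The 1 called bin became 0 with bins of a mean of at least 20 and 0 to 1 with each library left out.

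The difference of factors against targets, 0.29, was -0.20 with the trend removed, -0.20 with the replicate block as well, and -0.19 on the series table's reads with it removed. Signs turned in members near 0. Ndrg1 was at 0.20 with library totals, 0.42, 0.45 and 0.42 in the 3 TPM settings, and -0.37 to 0.031 with each library left out. Ankrd37 was at 0.041 with upper-quartile scaling, 0.38 with library totals, 0.0044 in limma-voom, 0.68, 0.73 and 0.68 in the TPM settings, 0.0031 with the replicate block, 0.29 with the trend removed, 0.31 with both, 0.011 on the series table's reads, 0.25 there with the trend removed, and -0.23 to 0.31 with each library left out. Ddit4, under the same settings except limma-voom and the replicate block alone, was at 0.042, 0.40, 0.64, 0.66, 0.64, 0.45, 0.47, 0.050 and 0.42, and at -0.10 to 0.13 with each library left out. Egln3 was at -0.14 without sham 2 and nano-TiO2 3 and at -0.077 to 0.58 with each library left out. Over the 10 members and 23 settings, 163 values kept their direction and side of the threshold, 20 newly passed with the same sign, 12 no longer passed and 35 turned sign, of which 2, both of Ddit4 in TPM settings, also newly passed.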
